A study of Triticum aestivum with 8 samples.

Results

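Loci with an accessible chromatin region (ACR) at 2 stages of wheat grain development that do not follow each other were described. ACRs are stretches of DNA that the Tn5 transposase can reach in ATAC-seq, an assay in which this enzyme cuts open DNA and tags it for sequencing, while DNA wrapped in nucleosomes is largely spared. The lists of DAP5, DAP9, DAP15 and DAP20 were joined into 180461 loci, with ACRs placed in 1 locus wherever they overlapped by at least 1 bp. Of these, 9607 loci (5.32%) held ACRs of exactly DAP5 and DAP20, exactly DAP5 and DAP15, or exactly DAP9 and DAP20. They made up 25.8% of the 37223 loci in exactly 2 lists. The members were chosen by their presence in the lists, so that their numbers are a description and support nothing by themselves.

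The material was grain of the bread wheat cultivar AK58 grown without a treatment that differed between groups. Endosperm, with the embryo taken out, was sampled on days 5 and 9, and whole seed on days 15 and 20, counted from fertilization in the labels and in the methods of the study. The stage names DAP5 to DAP20 follow the study, which reads DAP as days after pollination elsewhere. There were 8 sample records, 2 per stage, and 1 list of ACRs per stage, attached to the record of replicate 1. Whether a list rests on 1 sample or on both was not stated. Each of the 3 patterns therefore joins an endosperm list with a seed list, and stage and tissue cannot be told apart. Since no list per replicate was used, none of the values below could be set against replicate error. The labelled tissues were not checked against marker genes, because the lists hold coordinates only.

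Open chromatin in plants is found at promoters and at distal regulatory elements, where DNA-binding proteins take the place of nucleosomes. The cereal endosperm first divides as a syncytium, then forms cell walls and later fills with starch and storage proteins, while the embryo grows and the outer layers of the seed differentiate. A locus listed early, missing at a stage between and listed again is one way in which 4 separate lists can differ. A region open in fewer cells and a region less open in each cell cannot be told apart in bulk ATAC-seq.

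DAP5 and DAP20, the outermost stages, shared 3698 loci with neither stage between them (2.05% of all loci, Wilson 95% interval 1.985 to 2.116%). DAP9 and DAP20 shared 3065 loci (1.70%, 1.640 to 1.759%), missing at DAP5 and again at DAP15. DAP5 and DAP15 shared 2844 loci (1.58%, 1.520 to 1.634%), missing at DAP9 and at DAP20. Each of the 3 numbers was below that of any pair of neighbouring stages, which was 15008 for DAP5 and DAP9, 8317 for DAP15 and DAP20 and 4291 for DAP9 and DAP15. DAP5 and DAP9 were both endosperm, and DAP15 and DAP20 both seed, so that these pairs also share a tissue. Only DAP9 and DAP15 are neighbours that join endosperm with seed, and their number was the closest to those of the 3 patterns. Distance in time and tissue cannot be told apart here. The intervals cover counting error only, since neighbouring loci are not independent.

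**Figure D1:**
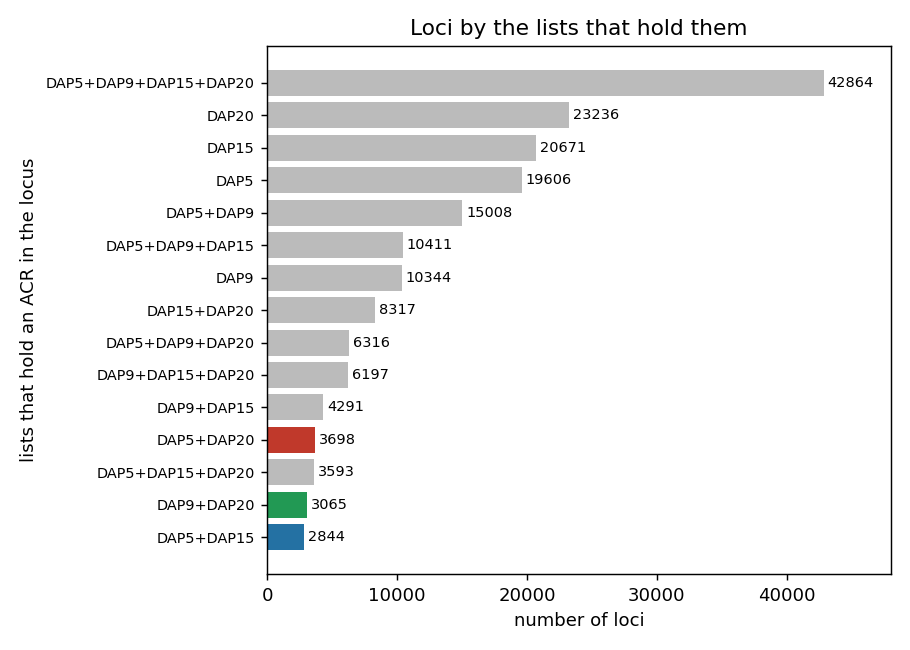
Number of loci (horizontal axis) for each of the 15 combinations of lists (vertical axis), with the 3 combinations of stages that do not follow each other in colour. The coloured bars, at 3698, 3065 and 2844 loci, are 3 of the 4 shortest, beside 42864 loci with an ACR in every list.

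The loci were a small part of every list, each of which was present in 97286 (DAP20) to 104340 (DAP5) loci. They took 3.54% of the DAP5 loci and 3.80% of the DAP20 loci for DAP5+DAP20, 2.73% of the DAP5 loci and 2.87% of the DAP15 loci for DAP5+DAP15, and 3.11% of the DAP9 loci and 3.15% of the DAP20 loci for DAP9+DAP20. In 9491 of the 9607 loci (98.8%) each of the lists held exactly 1 ACR. Only 116 loci joined 3 or more ACRs.

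The order of the 3 patterns changed with the ACRs that were counted. When every ACR was set to a width of 350 bp centred on its midpoint, DAP5+DAP20 stayed first with 4576 loci, ahead of DAP9+DAP20 with 3791 and DAP5+DAP15 with 3752. With ACRs of at least 350 bp alone, DAP5+DAP15 became the most frequent pattern with 3092 loci, ahead of DAP5+DAP20 with 2597 and DAP9+DAP20 with 2341. Most deposited ACRs were 350 bp wide plus a multiple of 150 bp, but 39.6% of the DAP20 list and 18.2% of the DAP5 list were off these steps, against 1.92% at DAP9 and 4.32% at DAP15. Without the ACRs off the steps, an alternative chosen after seeing the data, DAP5+DAP20 fell by a factor of more than 1.5 to 1983 loci and was the rarest pattern, behind 3610 for DAP5+DAP15 and 2742 for DAP9+DAP20.

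The order of the locus widths depended on the ACRs counted. The median width of the loci was 555 bp for DAP5+DAP20 (range 276 to 3821 bp), 619.5 bp for DAP5+DAP15 (350 to 4100 bp) and 500 bp for DAP9+DAP20 (294 to 1850 bp). With ACRs of at least 350 bp, the medians were 650, 613 and 526 bp, so that DAP5+DAP20 loci became the widest. With a reciprocal overlap of 50% they were 500, 533 and 500 bp. Together the loci covered 2.34, 1.95 and 1.70 Mb. Their ACRs were on average narrower than those of loci listed at every stage. In DAP5+DAP20 the mean width of an ACR was 507 bp at DAP5 and 451 bp at DAP20, whereas in loci of every list the means were 951 and 654 bp. In DAP5+DAP15 it was 523 bp at DAP5 and 493 bp at DAP15, against 951 and 849 bp. In DAP9+DAP20 it was 459 bp at DAP9 and 420 bp at DAP20, against 1010 and 654 bp. Such widths were not particular to these patterns. In DAP15+DAP20 the means were 498 bp at DAP15 and 460 bp at DAP20. In DAP9+DAP15 they were 515 and 527 bp, and in DAP5+DAP9 they were larger, at 673 and 624 bp. Loci of a single list had means of 479 bp (DAP5), 458 bp (DAP9), 449 bp (DAP15) and 398 bp (DAP20).

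Narrow ACRs were also more frequent in these loci than in the lists they came from, except at DAP15. Of the DAP20 ACRs, 24.4% in DAP5+DAP20 and 29.7% in DAP9+DAP20 were under 350 bp, compared with 8.08% in loci of every list and 18.7% in the whole DAP20 list. Of the DAP5 ACRs, 10.9% in DAP5+DAP20 and 7.62% in DAP5+DAP15 were under 350 bp, compared with 4.56% in the whole DAP5 list. Of the DAP9 ACRs, 2.67% in DAP9+DAP20 were under 350 bp, compared with 0.388% in the whole DAP9 list. At DAP15 no ACR was narrower than 350 bp. Such shares were not particular to these patterns at DAP20, with 24.97% in DAP15+DAP20 and 36.96% in loci of DAP20 alone. At DAP5 the share was 8.28% in loci of DAP5 alone, above that of DAP5+DAP15, but 3.05% in DAP5+DAP9. At DAP9 the shares were below that of DAP9+DAP20, with 0.715% in loci of DAP9 alone, 0.324% in DAP9+DAP15 and 0.131% in DAP5+DAP9. The 2 ACRs were both exactly 350 bp wide in 15.5% of the DAP5+DAP20, 24.2% of the DAP5+DAP15 and 21.8% of the DAP9+DAP20 loci with 1 ACR of each list.

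To ask whether the paired lists marked the same stretch of DNA, the base pairs covered by both lists were divided by those covered by either. The median was 60.7% in DAP5+DAP20 (quartiles 42.0 and 76.9%), 54.1% in DAP5+DAP15 (37.2 and 70.0%) and 69.6% in DAP9+DAP20 (50.2 and 81.8%). The DAP9+DAP20 ACRs thus lay most exactly on each other, and the DAP5+DAP15 ACRs least. The same lists had medians of 62.5%, 65.5% and 62.5% in the loci of every list. Sharing was therefore higher than there for DAP9+DAP20 and lower for DAP5+DAP15, and close to it for DAP5+DAP20. Pairs of neighbouring stages departed from the loci of every list as well. The median was higher for DAP15+DAP20 (69.1 against 63.3%). It was lower for DAP9+DAP15 (60.9 against 68.4%) and DAP5+DAP9 (68.6 against 74.2%). No test was made of these differences.

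**Figure D2:**
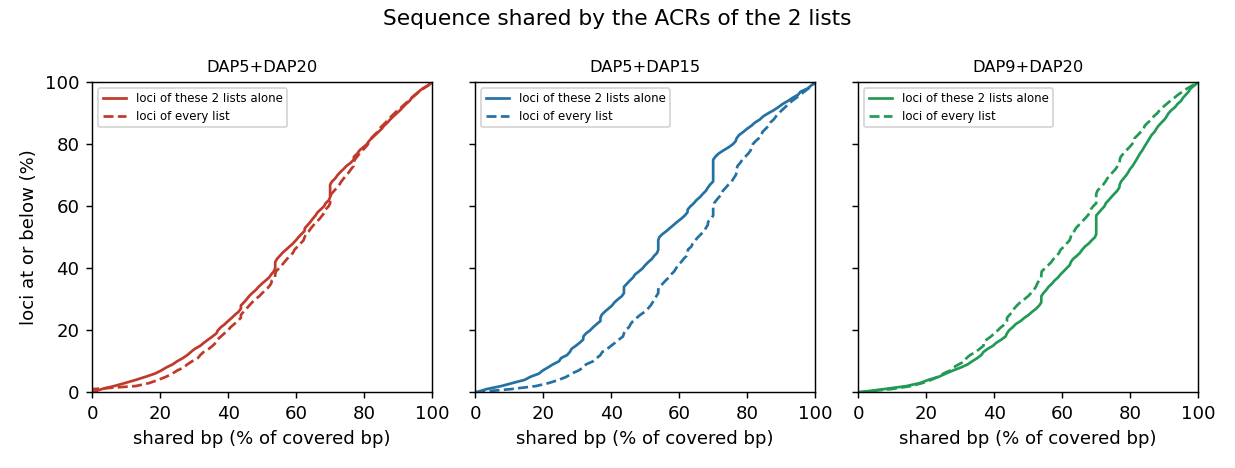
Cumulative percent of loci (vertical axis) by the base pairs covered by both lists as a percent of those covered by either (horizontal axis), for loci of the 2 named lists alone (solid) and for the same lists where all 4 were present (dashed). The solid line lies left of the dashed line for DAP5+DAP15 (medians 54.1 and 65.5%) and right of it for DAP9+DAP20 (69.6 and 62.5%).

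The length of the overlap itself varied little between patterns. Its median was 319 bp in DAP5+DAP20, 336 bp in DAP5+DAP15 and 318 bp in DAP9+DAP20, each close to the width of a 350-bp ACR. In loci with 1 ACR of each list, the midpoints of the 2 ACRs were a median of 87, 103 and 61 bp apart. At least 50% of both sides was shared in 72.2% of the DAP5+DAP20, 67.0% of the DAP5+DAP15 and 80.8% of the DAP9+DAP20 loci. One ACR lay wholly inside the other in 33.1, 31.5 and 32.6% of the loci with 1 ACR of each list, whereas this was the case for 52.8% (DAP5 and DAP20) and 54.2% (DAP9 and DAP20) of the loci of every list. Exactly the same start and end were found in 17, 16 and 9 loci.

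Weak contacts were a small share, but a larger one than in loci of every list. The overlap was under 100 bp in 129 DAP5+DAP20 (3.49%), 91 DAP5+DAP15 (3.20%) and 51 DAP9+DAP20 loci (1.66%). For the same lists this was so in 1.43, 0.847 and 0.910% of the loci of every list. In pairs of neighbouring stages the shares were 0.460% (DAP5+DAP9), 2.12% (DAP9+DAP15) and 1.96% (DAP15+DAP20). Requiring a reciprocal overlap of 50% kept 71.4, 66.1 and 80.3% of the members and split 1056, 964 and 603 of them. The same rule raised the numbers to 4392, 3483 and 3913, because it also broke up loci of other patterns, which gave 39.6, 45.9 and 37.0% of the loci counted then. The 3 numbers thus rose although members were lost.

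The loci at the edges of the rule show its reach. On 7B, 107938518 to 107942338, lay the widest DAP5+DAP20 locus and the one with the longest overlap. There a single DAP20 ACR of 3821 bp spanned a pair of DAP5 ACRs of 1250 and 2249 bp, with 3499 bp shared. The nearest ACR of the lists missing there was 2271 bp away at DAP15 and 296591 bp away at DAP9. At the other edge, on 2D, the DAP20 ACR from 638379353 to 638379702 and the DAP5 ACR from 638379702 to 638380018 met in 1 bp. A DAP5 ACR and a DAP20 ACR on 1D (409018299 to 409018648 and 409018650 to 409018999), separated by 1 bp, fell just outside the rule.

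In DAP5+DAP15 the widest locus and the longest overlap were again the same, on 4B from 291808303 to 291812402. The DAP5 ACR was 4100 bp wide and held the whole DAP15 ACR of 1700 bp, with the nearest DAP20 ACR at 4132 bp and the nearest DAP9 ACR at 32277 bp. The shortest overlap of this pattern, 4 bp, was also on 4B (191232936 to 191234062). The closest pair just outside, a DAP15 ACR of 350 bp and a DAP5 ACR of 500 bp, was 2 bp apart on 4B (119329422 to 119330273). All of these places were on 4B, which held only 75 of the 2844 loci of this pattern. The DAP15 list was uneven along 4B, as described below.

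DAP9+DAP20 had no locus of comparable width. Its widest, on 6D from 462273544 to 462275393, was a DAP9 ACR of 1850 bp that held DAP20 ACRs of 350 and 500 bp. The longest overlap was 1090 bp, on 1B (671251158 to 671252305), between ACRs of 1100 bp at DAP9 and 1138 bp at DAP20. The shortest was 3 bp, on 6A (581968448 to 581969294), and a pair on 2D (575269906 to 575270906) stayed outside by 1 bp. Coordinates are given as deposited, and no source names the genome build behind them, so that the genes, exons and sequence at these places are not given.

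A list missing from a locus often had an ACR at some distance. In DAP5+DAP20 the median distance to the nearest ACR was 6.30 kb for DAP9 and 6.80 kb for DAP15. In DAP5+DAP15 it was 4.02 kb for DAP9 and 4.44 kb for DAP20, the shortest of the 3 patterns. In DAP9+DAP20 it was 9.37 kb for DAP5 and 8.85 kb for DAP15, the longest. An ACR of either missing list lay within 500 bp of 13.2% of the DAP5+DAP20 loci (12.1 to 14.3%), 17.8% of the DAP5+DAP15 loci (16.5 to 19.3%) and 12.1% of the DAP9+DAP20 loci (11.0 to 13.3%). For the pairs of neighbouring stages the corresponding shares were 9.65% (DAP5+DAP9), 12.9% (DAP9+DAP15) and 9.72% (DAP15+DAP20).

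**Figure D3:**
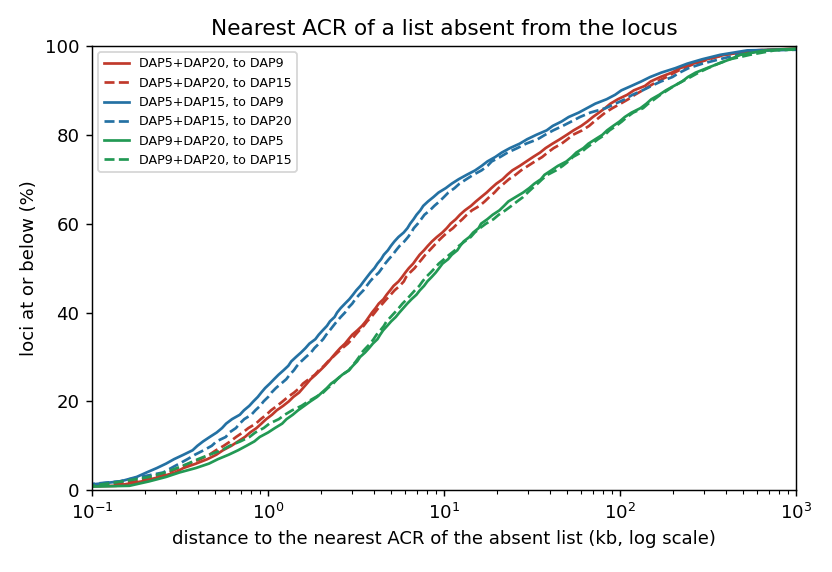
Cumulative percent of loci (vertical axis) by the distance in kb on a log scale (horizontal axis) from the locus to the nearest ACR of each list missing from it. DAP5+DAP15 loci lie closest to such ACRs (medians 4.02 and 4.44 kb) and DAP9+DAP20 loci farthest from them (9.37 and 8.85 kb).

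Leaving out the loci with such a close ACR left 3211, 2337 and 2694 loci in DAP5+DAP20, DAP5+DAP15 and DAP9+DAP20. When ACRs within 500 bp were merged instead, 617, 644 and 425 members gained a list, and 318, 345 and 170 of them became loci of every list. Most members, 83.3, 77.4 and 86.1%, kept their pattern.

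DAP5+DAP20 loci were concentrated towards the chromosome ends, which in wheat are rich in genes and in recombination. With ends taken as the outer 20% of the length on either side, 72.1% of the DAP5+DAP20 loci lay at the ends (70.7 to 73.6%), against 61.7% of all loci. The share was 63.5% in DAP9+DAP20 (61.8 to 65.2%) and 57.7% in DAP5+DAP15 (55.8 to 59.5%). DAP5+DAP20 exceeded all loci on 21 of 21 chromosomes, DAP9+DAP20 on 15 and DAP5+DAP15 on 5. DAP5+DAP20 was above DAP5+DAP15 on 21 chromosomes and above DAP9+DAP20 on 19, while DAP9+DAP20 was above DAP5+DAP15 on 16. Position was not used to choose the loci, but chromosomes are not biological replicates.

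At the very tips the patterns were ordered differently. The outermost 2.5% of the length at either end held 22.0% of the DAP5+DAP20, 15.7% of the DAP5+DAP15 and 10.8% of the DAP9+DAP20 loci, against 13.1% of all loci. DAP5+DAP15 was thus above all loci at the very tips and below them over the outer 20%, and DAP9+DAP20 was the other way round. The median distance to the nearer end was 57.9 Mb in DAP5+DAP20, 104.5 Mb in DAP5+DAP15 and 91.0 Mb in DAP9+DAP20, beside 95.3 Mb for all loci. Loci of 1 list alone also differed in position, with 71.1% at the ends for DAP20, 65.4% for DAP5, 56.4% for DAP9 and 54.2% for DAP15. The share of DAP5+DAP20 was close to that of DAP20 alone, and the share of DAP5+DAP15 lay between those of DAP5 and DAP15 alone.

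**Figure D4:**
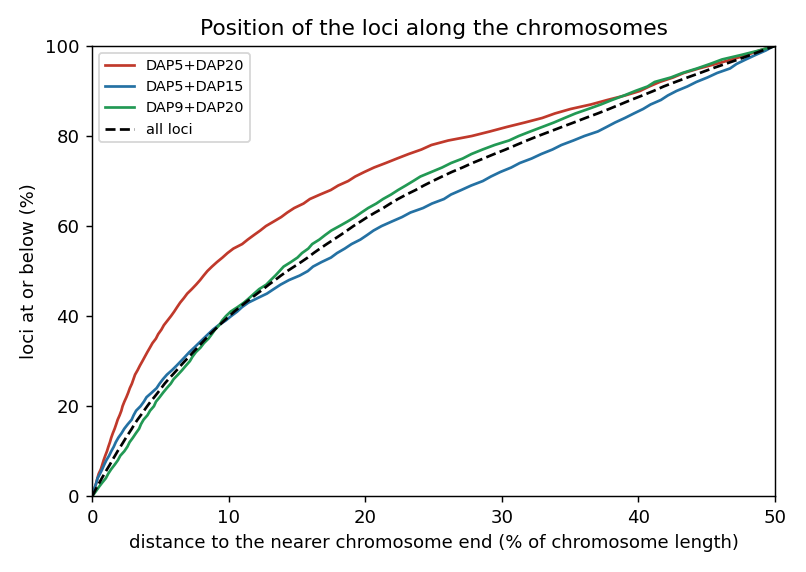
Cumulative percent of loci (vertical axis) by distance to the nearer chromosome end as a percent of chromosome length (horizontal axis), for the 3 patterns and for all loci (dashed). At 20% of the length, the DAP5+DAP20 line stands at 72.1%, above DAP9+DAP20 at 63.5%, all loci at 61.7% and DAP5+DAP15 at 57.7%.

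The shares at the ends changed little without narrow ACRs. With ACRs of at least 350 bp the shares at the ends were 72.9, 58.6 and 63.4% for DAP5+DAP20, DAP5+DAP15 and DAP9+DAP20. All loci then had 61.3%. With a reciprocal overlap of 50% the share of DAP5+DAP20 was lower, at 67.1%, beside 58.0 and 62.8%. All loci had 62.0% under this rule. The excess of DAP5+DAP20 over all loci was thus smaller than under the main rule, where the shares were 72.1 and 61.7%. The order of the 3 patterns was the same with ends of 10% or 30%. With ends of 10%, DAP5+DAP20 stood at 54.2% against 39.9% of all loci. DAP5+DAP15 at 39.6% and DAP9+DAP20 at 40.6% were then close to all loci.

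The highest and lowest shares fell on 3 chromosomes, 4B, 6A and 6B. DAP5+DAP20 took between 1.51% of the loci (6A) and 2.83% (6B), with a median over chromosomes of 1.99%. DAP5+DAP15 took between 0.998% (4B) and 2.11% (6B), with a median of 1.51%. DAP9+DAP20 took between 1.24% (6B) and 3.38% (4B), with a median of 1.59%. Chromosome 6B was thus highest for both patterns with DAP5 and lowest for the pattern without it. The DAP9 list was the shortest on 14 of 21 chromosomes, 6B among them, with 4665 ACRs beside 5653 at DAP5, 5231 at DAP15 and 5362 at DAP20, and the part of this in the shares was not tested.

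**Figure D5:**
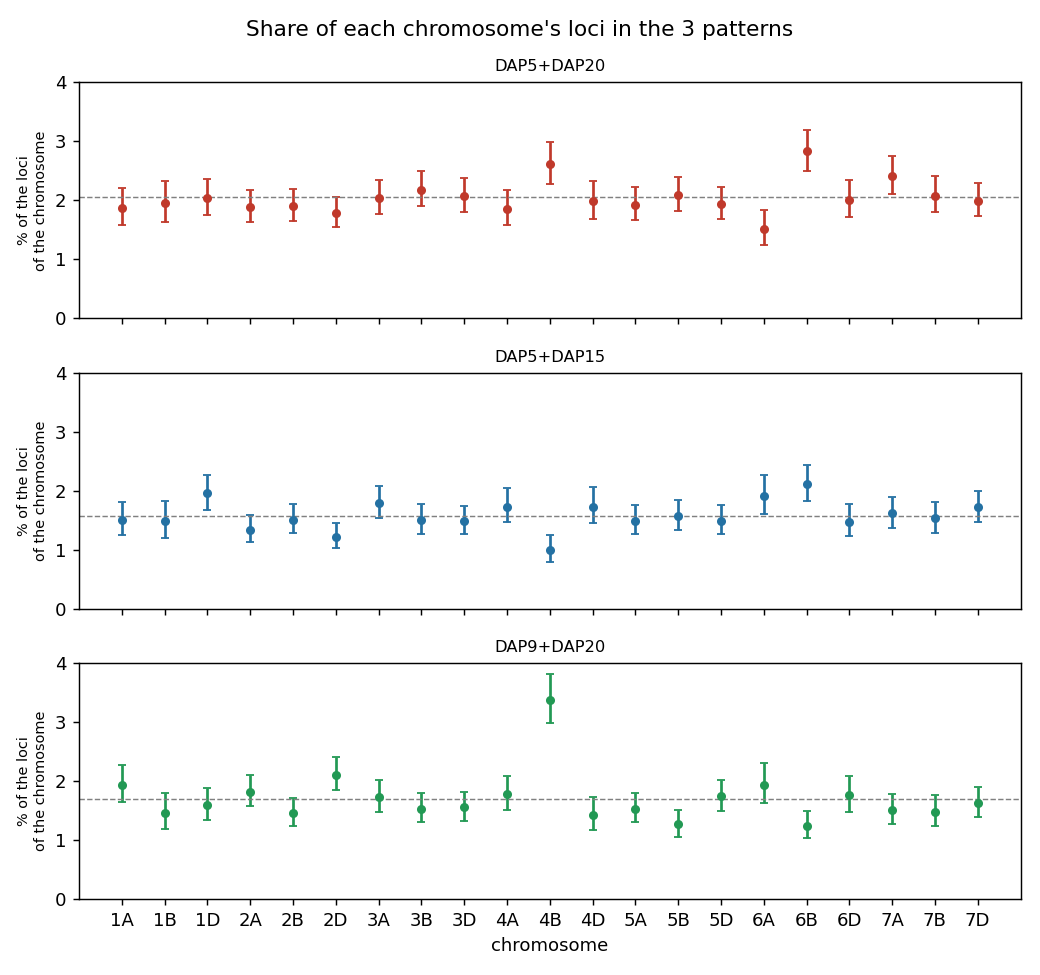
Percent of the loci of each of the 21 chromosomes (vertical axis) that belong to each pattern, with Wilson 95% intervals as bars and the share over all chromosomes as a dashed line. Chromosome 4B stands at 3.38% for DAP9+DAP20 and at 0.998% for DAP5+DAP15, and 6B is highest for DAP5+DAP20 and DAP5+DAP15.

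DAP5+DAP20 was more frequent than DAP5+DAP15 on 20 of 21 chromosomes, all but 6A. It was more frequent than DAP9+DAP20 on 17, the exceptions being 1A, 2D, 4B and 6A. DAP5+DAP15 exceeded DAP9+DAP20 on only 10 chromosomes, so that the order of these patterns differed along the genome.

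On 4B the DAP15 list was short, with 3450 ACRs beside 4308 at DAP5, 4213 at DAP9 and 4339 at DAP20. In windows of 20 Mb, the DAP15 list held at most 50% of the median of the other lists in 19 windows, all of them among the 34 tested on 4B, out of 699 tested in the genome. The loci of these windows numbered 4167, of which 162 (3.89%) were DAP5+DAP20, 224 (5.38%) DAP9+DAP20 and 6 (0.144%) DAP5+DAP15. In 6 other windows of 4B the DAP15 list held at least 2 times that median, and there 25 of 1027 loci (2.43%) were DAP5+DAP15, with 4 loci of each of the other patterns. The windows were chosen by the DAP15 list, whose presence or absence also defines the patterns, so that these values are a description only. Without 4B, 3502, 2769 and 2811 loci were left in DAP5+DAP20, DAP5+DAP15 and DAP9+DAP20, together 9082 (5.25% of loci).

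Bread wheat carries 3 subgenomes, A, B and D, with 7 homoeologous groups of chromosomes. The share of loci was compared between subgenomes with an exact two-sided sign-flip permutation test over the 7 groups, in 9 tests with Benjamini-Hochberg adjustment. A p of 0.0156 is the smallest possible with 7 groups, and none of the 9 passed the threshold of 0.05 after adjustment. With 9 tests, fewer than 3 differences could not have passed even at this p. The outcome therefore does not show that the subgenomes are alike. For DAP5+DAP20 the mean share was 1.93% ± 0.267 (SD, n = 7 chromosomes) in A, 2.23% ± 0.350 in B and 1.97% ± 0.0921 in D. The difference between B and D of 0.260 percentage points, positive in 6 of 7 groups, had the smallest p by the exact permutation test (p = 0.0469, adjusted p = 0.422). For DAP9+DAP20 the means were 1.75% ± 0.171 in A, 1.69% ± 0.753 in B (4B at 3.38%) and 1.69% ± 0.219 in D. Without group 4, B was at 1.41%, below A at 1.75% and below D at 1.73% in 6 of 6 groups each. The exact permutation test gave p = 0.03125 for both, the smallest possible with 6 groups (adjusted p = 0.141).

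Counted per Mb of chromosome, the loci were sparser in A than in D for every pattern, in 7 of 7 groups each. The difference was -0.0799 loci per Mb for DAP5+DAP20, -0.0571 for DAP5+DAP15 and -0.0585 for DAP9+DAP20 (exact permutation test, p = 0.0156, adjusted p = 0.0469 each). Counts per Mb also depend on how dense loci of any pattern are, which shares of loci divide out. As shares of the loci of a chromosome, the 3 patterns differed between A and D by only -0.0434, 0.0440 and 0.0630 percentage points. Chromosomes of a subgenome share their list, so that these tests compare places in the genome and not plants.

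Loci of a pattern were closest to each other in DAP5+DAP20. The nearest locus of the same pattern was a median of 0.588 Mb away in DAP5+DAP20, 1.12 Mb in DAP5+DAP15 and 1.01 Mb in DAP9+DAP20. It was within 1 Mb for 62.0, 46.9 and 49.6% of the loci. Of 13399 windows of 1 Mb with a locus, 2634, 2325 and 2495 held a member, and only 28, 6 and 5 held 5 or more. A second locus of the same pattern lay within 10 kb for 292, 199 and 109 loci. No expectation from the density of loci was set beside these numbers.

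The window with the most members was on 5B, from 691000001 to 692000000, with 22 members among 103 loci. Of these, 9 were DAP5+DAP20, 13 DAP5+DAP15 and 0 DAP9+DAP20. The DAP5 list was present in 80 loci of the window, DAP15 in 47 and DAP20 in 39, but DAP9 in only 13. Within it, a stretch of 330.5 kb (691153540 to 691484078) held 20 of the members among 91 loci, and 35 loci of DAP5 alone.

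Members of both patterns were found along this stretch, in runs of up to 5 members of the same pattern. A DAP5+DAP15 locus from 691432529 to 691433206 and a DAP5+DAP20 locus from 691433227 to 691433736 were 20 bp apart, with the nearest DAP9 ACR 9490 bp from the first and 10188 bp from the second. The widest member there, a DAP5+DAP15 locus of 1700 bp (691461459 to 691463158), had a DAP20 ACR at 960 bp and a DAP9 ACR at 1314 bp. A DAP5+DAP20 locus of 452 bp (691319701 to 691320152) was 34133 bp from the nearest DAP9 ACR and 18235 bp from the nearest DAP15 ACR. The lists missing from a member were thus near in some places and far in others of the same cluster.

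The richest window of DAP5+DAP20 was on 4B (671000001 to 672000000), with 11 members among 70 loci. The DAP15 list had 13 ACRs in it, beside 58 at DAP5, 39 at DAP9 and 50 at DAP20. DAP9+DAP20 had its richest window on 4B as well (609000001 to 610000000), with 7 members among 30 loci and 6 DAP15 ACRs beside 19, 24 and 20. In all 3 of these windows the shortest list was one that the pattern requires to be missing, which the choice of richest windows favours.

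Neighbouring loci were compared to see what surrounded the members. Next to DAP5+DAP20 loci, 16.4% of the neighbours were of DAP20 alone and 14.0% of DAP5 alone, against 12.9 and 10.9% of all loci, and 3.06% were of the same pattern, against 2.05%. Next to DAP5+DAP15 loci, 2.29% were of the same pattern, against 1.58%, and 25.9% were loci of every list, against 23.8%. There 11.8% were of DAP5 alone, against 10.9%, and 12.1% of DAP15 alone, against 11.5%. Next to DAP9+DAP20 loci, 7.23% were of DAP9 alone, against 5.73%, and 2.58% of the same pattern, against 1.70%. Loci of DAP20 alone made up 15.0% of the neighbours there, against 12.9%. In each pattern, loci of the same pattern and of either of its lists alone were thus more frequent as neighbours than in the genome. For DAP5+DAP15 the single-list shares were close to those of all loci. Loci of both lists and a further list were more frequent too. Beside DAP5+DAP20 they were 4.44% with DAP9 (against 3.50%) and 2.85% with DAP15 (1.99%). Beside DAP5+DAP15 they were 6.96% with DAP9 (5.77%) and 2.37% with DAP20 (1.99%). Beside DAP9+DAP20 they were 4.52% with DAP5 (3.50%) and 3.85% with DAP15 (3.43%). No test was made of the excess.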

How the data were processed

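ATAC-seq of endosperm (DAP5, DAP9) and whole seed (DAP15, DAP20) of AK58 was used, grouped by their labels. As described in the methods of the study, the authors trimmed reads with fastp (Trimmomatic 0.36 in the submitters' processing notes), aligned them with Bowtie2, removed duplicates with Picard and called peaks with MACS2. Peaks were cut into overlapping bins, bins with enough Tn5 insertions were joined again, and blacklisted and organelle-like peaks were removed. The density minimum, the genome build and the pooling of replicates were not given in the sources used here. The deposited values are coordinates in bp, in 3 columns, without scores or read numbers, so that the depth is unknown.

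Loci were built with Python 3.11.15, numpy 2.4.6, pandas 2.3.3 and scipy 1.17.1, and figures were drawn with matplotlib 3.10.9. Chromosome length was approximated by the last listed position. Shares have Wilson 95% intervals. Merging and the sign-flip test were tested on simulated data. Named loci were, per pattern, the widest, those of longest and shortest overlap and the closest pair outside, and the richest 1-Mb window. The run on 5B and its members were picked with their values in view. The patterns, lists and tests were chosen with earlier results of these data known. Alternatives were a width of 350 bp, a reciprocal overlap of 50%, merging within 500 bp, midpoint windows, ends of 10 or 30%, loci per Mb, and no 4B or group 4. Genes and sequences were not analysed here.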

Additional observations from a re-analysis of the deposited data

Results flagged for a closer look

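On chromosome 4B, 3.38% of the loci were DAP9+DAP20, far from the other B chromosomes, of which the next highest had 1.54%. This was the only such value among 9 groups of 7 chromosomes examined (3 patterns in 3 subgenomes) by Dixon's criterion, which chance passes in about 1 of 20 groups. Chromosomes are not replicate samples. The DAP15 list, which must be missing from these loci, was short over much of 4B, and its part in the value was not tested.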

How the results depend on the processing

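Of 21 recalculated numbers of loci, 20 stayed within 1.5 times of the value given. The exception was DAP5+DAP20 without ACRs off the width steps, at 1983 loci. This alternative and those on the median width were chosen after seeing the data. The share at the ends was 54.2, 39.6 and 40.6% with outer ends of 10%, and 81.8, 72.2 and 78.5% with ends of 30%, for DAP5+DAP20, DAP5+DAP15 and DAP9+DAP20, as smaller or larger ends must give. All loci had 39.9% with ends of 10% and 76.7% with ends of 30%. With reciprocal overlap the share of DAP5+DAP20 was 67.1%, against 62.0% of all loci, and the cause was not tested.

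Of the subgenome differences in percentage points, none of which passed, 24 recalculations kept their direction and side of the threshold and 11 changed sign. With reciprocal overlap, A minus D of DAP5+DAP20 became 0.0691. Without group 4, A minus B of DAP5+DAP15 became -0.0100, B minus D of DAP5+DAP15 became 0.0609 and B minus D of DAP9+DAP20 became -0.322. With ACRs of at least 350 bp, all 3 of DAP9+DAP20 turned, to -0.0898 (A minus B), -0.0913 (A minus D) and -0.00152 (B minus D). Loci per Mb are another unit, not divided by all loci of the chromosome. In this unit B minus D became -0.0558 in DAP5+DAP20 and -0.0756 in DAP9+DAP20. A minus D became -0.0571 in DAP5+DAP15 and -0.0585 in DAP9+DAP20, both past the threshold. Only A minus D of DAP5+DAP20 newly passed in its own direction, at -0.0799. The cause of these changes was not tested. No paired analysis was possible because each stage had a single list, and no replicate could be left out.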
